A study of Mus musculus with 4 samples.

Results

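Genes that mark resting and activated microglia, the resident macrophages of the brain, were followed in brain RNA of Bcas1 knockout and wild-type mice. The list names 32 genes, 17 called homeostatic and 15 called activation genes. The members are all probe sets to which the platform annotation gives one of these symbols. It named 50 probe sets for 30 of the genes, out of 18193 genes on the arrays. All 17 homeostatic genes and 13 of the 15 activation genes were measured, and no probe set was named for Spp1 or Cd63. The brightest probe set of a gene, by its mean over the 4 arrays, stands for the gene unless another is named.

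The groups were 2 wild-type (+/+) and 2 BCAS1 KO (-/-) mice, all male C57BL/6 animals of 8 to 9 weeks bred from heterozygous (+/-) parents. Each mouse gave 1 Affymetrix array of total brain RNA, and the sample descriptions name the cerebrum. The labels do not say which part of the gene was disrupted or whether the loss was limited to one cell type. The levels are RMA estimates in log2 units, so a difference of 1 is a doubling. They are compared only within a probe set.

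Microglia survey the tissue with fine processes, clear debris and dying cells, and prune synapses. Their survival depends on the receptor encoded by Csf1r, and their resting state is marked by purine and chemokine receptors such as P2ry12 and Cx3cr1. When myelin or neurons are damaged, signalling through Trem2 and its adaptor Tyrobp accompanies a change of state in which resting genes fall and genes of phagocytosis, lysosomes and lipid handling rise. Bcas1 itself is expressed in oligodendrocytes that are forming myelin.

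The arrays were alike in their overall distribution, which RMA equalises, so this does not measure their quality. Their medians lay between 6.49 and 6.51, and any pair of arrays correlated at 0.996 to 0.998 over all probe sets. In the actin control, whose 3' signal exceeds its 5' signal more as RNA degrades, this excess was 1.09 and 1.12 in the +/+ mice, against 1.14 and 1.15 in the -/- mice. The brightest probe set of the targeted gene, Bcas1, measured 12.17 and 12.21 in the +/+ mice, against 11.05 and 10.75 in the -/- mice, while its 2 dim probe sets were higher in the knockout. All 6 neuron, all 6 astrocyte and all 5 measured oligodendrocyte markers lay above the median level of 6.49 over all probe sets, as did all 17 homeostatic microglial genes. The second knockout array stood apart: its 6 nasal mucosa markers had a mean level of 7.57, against 4.82 to 5.05 in the other 3 arrays. Several differences of single genes that this array sets apart, and the counts over the list, are also given without it.

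None of the 30 genes passed the test for a difference between the genotypes, which with 2 mice per group does not show equal levels. In limma, fitted on all 45037 probe sets, 0 of the 50 member probe sets had an adjusted p under 0.05, and every member had an adjusted p of 1. At that threshold the test called 2 probe sets in the whole table (0.00444%), which by gene is 1 of 18193 (0.0055%). The targeted gene was not called either: the brightest Bcas1 probe set differed by -1.29, with an adjusted p of 0.742 in limma. At an unadjusted p under 0.05 it called 0 of the 30 members, against 2.75% of all genes. An exact permutation test of 2 against 2 mice cannot give a two-sided p below 0.333, so single genes were not tested that way.

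The differences were small as well as uncalled. On the log2 scale they ran from -0.12 for Cx3cr1 to 0.25 for Lgals3, with a median of 0.018 over the 30 members and 0.0050 over all genes. The median was 0.010 for the homeostatic genes and 0.025 for the activation genes. For all 30 members the 95% interval of the difference at the brightest probe set lay inside 1.5-fold either way, which held for 95.8% of all genes. Among the other member probe sets, the dimmest of Csf1 (-0.067 to 0.61) and of Ctsb (-0.62 to 0.29) had intervals beyond that bound. These intervals are not adjusted for the number of genes. They bound the array signal, and in dim probe sets the array signal understates a change in RNA. Brain RNA was measured in bulk, so fewer microglia and less RNA per microglial cell could not be told apart. Nor could microglial RNA be told apart from RNA of other cells that express a member.

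**Figure D1:**
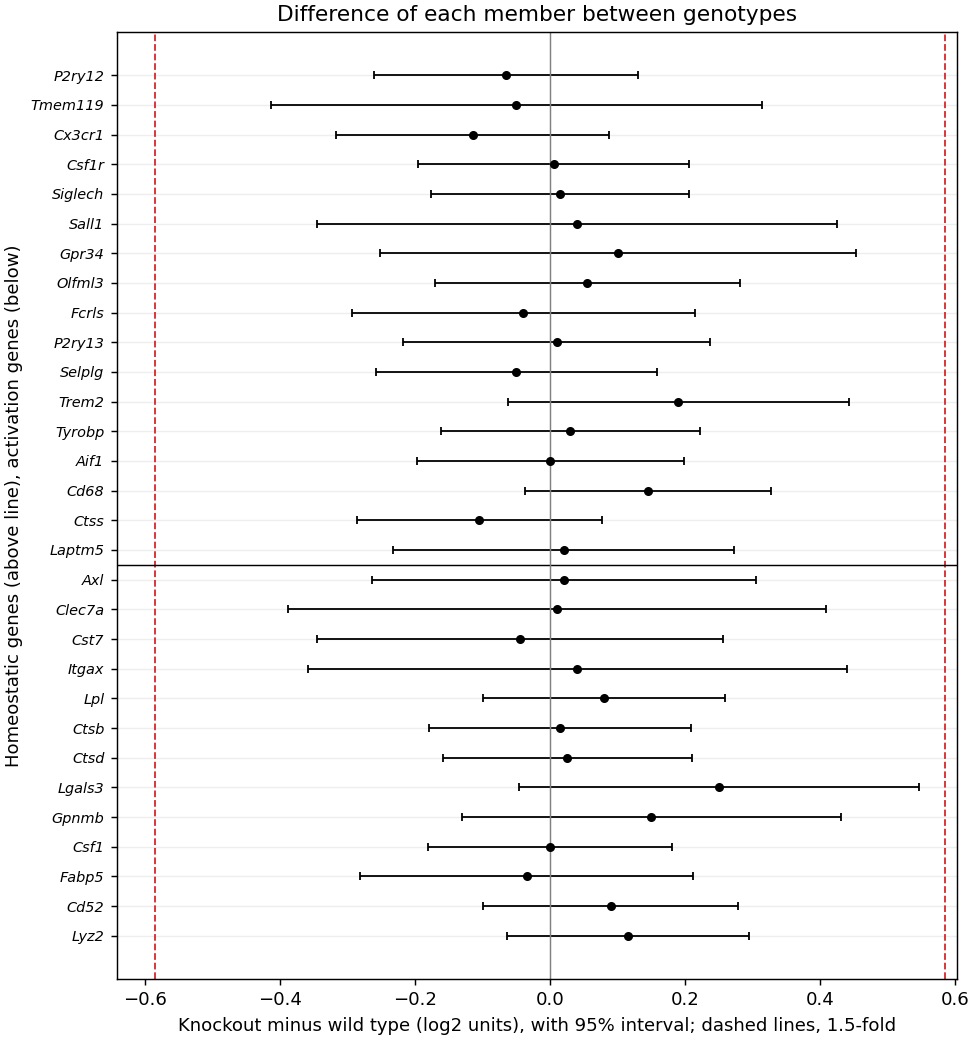
Difference between genotypes (knockout minus wild type, log2 units) of the 30 measured members at their brightest probe set. Points are limma estimates from 2 mice per group, bars are 95% intervals, and dashed lines mark 1.5-fold; every bar crosses 0 and none reaches a dashed line.

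Promoter sequences are shown for 4 members as examples from the groups described next. P2ry12 is a resting-state receptor, Trem2 and Lyz2 are among the genes with higher values in both knockout mice, and Ctsd is a lysosomal enzyme. All 4 hold a match to a word below, so they do not represent the members. Each line holds the 120 bases before the annotated transcription start, 5′ to 3′ on the gene's strand, from RefSeq (GRCm38.p6). Capitals mark a match to AGGAAGT or GAGGAAG, purine-rich words of the kind bound by the macrophage factor PU.1, or to the E-box CACGTG, the word bound by TFEB and MITF, factors of lysosomal genes. Both strands were searched, so a match may appear as the reverse complement.

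P2ry12: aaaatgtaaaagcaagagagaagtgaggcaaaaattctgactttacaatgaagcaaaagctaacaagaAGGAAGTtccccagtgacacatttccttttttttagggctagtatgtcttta
Trem2: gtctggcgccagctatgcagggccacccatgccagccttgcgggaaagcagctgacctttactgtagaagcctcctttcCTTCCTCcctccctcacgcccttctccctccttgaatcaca
Lyz2: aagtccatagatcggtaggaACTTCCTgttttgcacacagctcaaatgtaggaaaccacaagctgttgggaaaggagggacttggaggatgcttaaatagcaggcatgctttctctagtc
Ctsd: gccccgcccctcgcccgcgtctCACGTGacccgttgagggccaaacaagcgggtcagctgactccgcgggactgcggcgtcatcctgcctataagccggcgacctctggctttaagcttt

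These windows lie at chr3:59262986-59263105 (P2ry12, minus strand), chr17:48346281-48346400 (Trem2, plus strand), chr10:117282273-117282392 (Lyz2, minus strand) and chr7:142387828-142387947 (Ctsd, minus strand). The match starts 52 bases before the start in P2ry12, 41 in Trem2, 100 in Lyz2 and 98 in Ctsd. The RefSeq table held promoters for 23 of the 32 listed genes. In the 250 bases before the start, AGGAAGT occurred in 6 of them (26.1%) and in 8.80% of all 27025 genes with a promoter. GAGGAAG, which overlaps the first word in 6 letters, occurred in 7 of the 23 (30.4%) and in 12% of all genes. Fcrls and Spp1 held both words. Neither word was found for Cd68, Lpl, Lgals3 or Cd52, the other members higher in both knockout mice. These may not all be among the 23. CACGTG occurred in 3 of the 23, P2ry12, Siglech and Ctsd (13%), and in 6.86% of all genes. The words were chosen after several had been looked at, and a match is a description of the letters, not evidence of binding.

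The purine and chemokine receptors of resting microglia had nearly the same values in both genotypes, and Cx3cr1 alone among them had values that did not overlap. Cx3cr1, the receptor for the neuronal chemokine fractalkine, measured 8.91 and 8.91 in the +/+ mice, against 8.85 and 8.74 in the -/- mice. Both knockout values lay below both wild-type values, by a difference of -0.12 (SE 0.077, 95% interval -0.32 to 0.087, n = 2 each), and the second knockout array held the lower one. Without that array the difference was -0.060. Its dim second probe set overlapped, with a difference of 0.025 (SE 0.099). The ligand gene Cx3cl1 differed by -0.030.

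P2ry12, the purine receptor that steers microglial processes, measured 9.11 and 9.16 in the +/+ mice, against 9.03 and 9.11 in the -/- mice. The second knockout value equalled the lower wild-type value, and the difference was -0.065 (SE 0.075). Its relative P2ry13 measured 7.62 and 7.69 in the +/+ mice, against 7.59 and 7.74 in the -/- mice. The wild-type pair thus lay inside the knockout pair for P2ry13, and the difference was 0.010 (SE 0.087). Tmem119, a membrane protein used to tell microglia from blood macrophages, measured 7.98 and 8.11 in the +/+ mice, against 7.82 and 8.17 in the -/- mice. It showed the same nesting, with a difference of -0.050 (SE 0.14).

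Csf1r, the receptor on which microglial survival depends, gave 3 probe sets with differences of 0.0050, -0.015 and -0.080, from the brightest to the dimmest. All 3 overlapped between the genotypes. Its ligands also overlapped at their brightest probe sets. Il34, the ligand made mainly by neurons, differed by -0.060 (SE 0.093). Csf1, counted here among the activation genes, measured 8.27 and 8.29 in the +/+ mice, against 8.29 and 8.27 in the -/- mice, so its difference was 0. The 2 next brightest Csf1 probe sets each differed by 0.040, and the dimmest, at a mean level of 3.92, by 0.27 (SE 0.13).

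Siglech, Fcrls, Selplg and Gpr34, further surface genes of the resting state, overlapped between genotypes. Siglech, a sialic acid binding receptor, differed by 0.015 (SE 0.073) and Fcrls, an Fc receptor-like protein, by -0.040 (SE 0.097). Selplg, the selectin ligand, differed by -0.050 (SE 0.080). Gpr34, a receptor for lysophosphatidylserine, measured 7.30 and 7.09 in the +/+ mice, against 7.44 and 7.15 in the -/- mice. Each genotype held 1 high and 1 low value, and the difference was 0.10 (SE 0.13).

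Sall1, a transcription factor that maintains microglial identity, had widely spaced knockout values. It measured 7.52 and 7.48 in the +/+ mice, against 7.74 and 7.34 in the -/- mice, a difference of 0.040 (SE 0.15). The first knockout mouse held the highest and the second the lowest of the 4 values. The dim second Sall1 probe set did not show this spacing, with values of 5.92, 5.88, 5.91 and 5.89 in the same array order of wild type and then knockout. Olfml3, a secreted protein enriched in microglia, differed by 0.055 (SE 0.086).

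The phagocytic receptor Trem2 was higher in both knockout mice than in both wild-type mice, without passing the test. Its brightest probe set measured 7.47 and 7.46 in the +/+ mice, against 7.55 and 7.76 in the -/- mice. The wild-type mice were almost equal and the second knockout mouse lay highest. The difference was 0.19 (SE 0.097, 95% interval -0.063 to 0.44, n = 2 each), a 1.14-fold higher level. Without the second knockout array it was 0.085. The other Trem2 probe set was dim and went the other way, with 4.44 and 4.74 in the +/+ mice, against 4.30 and 4.68 in the -/- mice, a difference of -0.10 (SE 0.17). The brightest has a suffix for shared probes, and the mean of both Trem2 probe sets differed by 0.045, with overlap.

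Tyrobp, the adaptor that carries the Trem2 signal, did not separate the genotypes. It measured 9.55 and 9.57 in the +/+ mice, against 9.55 and 9.63 in the -/- mice, a difference of 0.030 (SE 0.073). Of the genes that signal downstream, Plcg2, a phospholipase, differed by -0.095 (SE 0.077), with knockout values of 6.90 and 6.92 below wild-type values of 7.06 and 6.95. Apoe, a lipid carrier that can bind Trem2, differed by -0.020, and Syk and Inpp5d overlapped between the genotypes.

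Among the genes shared with other macrophages, Cd68 and Ctss did not overlap between genotypes, Cd68 being higher and Ctss lower in the knockout, without passing the test. Cd68, a lysosomal membrane protein of phagocytes, measured 6.99 and 7.03 in the +/+ mice, against 7.16 and 7.15 in the -/- mice. Each pair was tight, and the difference was 0.15 (SE 0.070, 95% interval -0.037 to 0.33). Ctss, a lysosomal protease used in antigen processing, measured 11.12 and 11.14 in the +/+ mice, against 11.01 and 11.04 in the -/- mice. Both knockout values lay below, by -0.11 (SE 0.069, 95% interval -0.29 to 0.076). Leaving out any 1 array kept the Cd68 difference between 0.13 and 0.17 and the Ctss difference between -0.12 and -0.090.

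Aif1, the marker IBA1 used to stain microglia, measured 7.48 and 7.42 in the +/+ mice, against 7.41 and 7.49 in the -/- mice, so its difference was 0 (95% interval -0.20 to 0.20). The wild-type values lay inside the knockout values. Laptm5, a lysosomal protein, gave 5 probe sets with differences from -0.085 to 0.070. Of these 4 were above 0 and 1 below, and each gene-level statement about Laptm5 rests on a probe set that may also match related sequence, since the brightest has the suffix for shared probes.

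**Figure D2:**
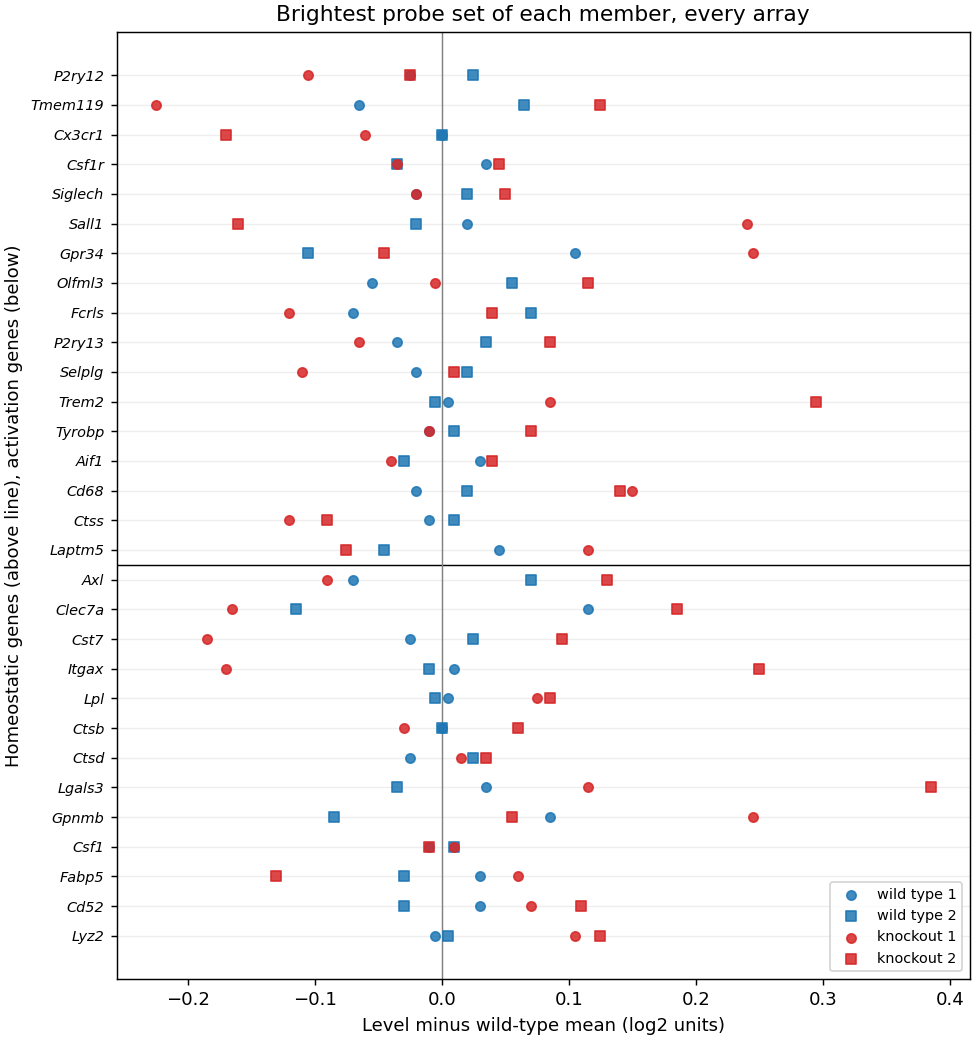
Level of each measured member at its brightest probe set in every array, as the distance from the wild-type mean in log2 units. Blue symbols are the wild-type mice, red symbols the knockout mice, circles mouse 1 and squares mouse 2 of a group; Cd68, Lpl and Lyz2 show tight pairs apart from each other, while Tmem119, Sall1 and Itgax show wide knockout pairs around the wild type.

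Some of the activation genes known from disease-associated microglia were dim. The genes Clec7a, Cst7, Itgax, Lgals3 and Gpnmb had mean levels below the median of all probe sets, and the other 8 measured activation genes lay above it. The deposited values carry no detection calls, so these 5 genes were not separated from background.

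Lgals3, a galectin of phagocytic cells, had the widest difference of the members at their brightest probe sets. It measured 5.77 and 5.70 in the +/+ mice, against 5.85 and 6.12 in the -/- mice, and the second knockout mouse held the highest value. The difference was 0.25 (SE 0.11, 95% interval -0.047 to 0.55, n = 2 each), a 1.19-fold higher level, and it was 0.12 without the second knockout array. Gpnmb, a glycoprotein of lipid-laden phagocytes, measured 6.06 and 5.89 in the +/+ mice, against 6.22 and 6.03 in the -/- mice. The genotypes overlapped, with a difference of 0.15 (SE 0.11). Leaving out knockout mouse 1 gave 0.055 and leaving out wild-type mouse 2 gave 0.065, while leaving out one of the other two gave 0.24 and 0.25. Its second probe set, at a mean level of 3.57, differed by 0.

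For Clec7a, Cst7 and Itgax the first knockout mouse was lowest and the second highest. Itgax, which encodes the integrin CD11c, measured 5.33 and 5.31 in the +/+ mice, against 5.15 and 5.57 in the -/- mice, a difference of 0.040 (SE 0.15). Clec7a, the receptor dectin-1, differed by 0.010 (SE 0.15) and Cst7, the protease inhibitor cystatin F, by -0.045 (SE 0.11). Without the second knockout array the difference was -0.17 for Itgax and -0.17 for Clec7a.

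Lyz2, Lpl and Cd52 had small differences with no overlap between genotypes. Lyz2, the lysozyme of macrophages and neutrophils, measured 7.78 and 7.79 in the +/+ mice, against 7.89 and 7.91 in the -/- mice, a difference of 0.12 (SE 0.069, 95% interval -0.065 to 0.29). Lpl, the lipase that releases fatty acids from lipoproteins, measured 9.27 and 9.26 in the +/+ mice, against 9.34 and 9.35 in the -/- mice, a difference of 0.080 (SE 0.068). Its second probe set also did not overlap, with 6.52 and 6.62 in the +/+ mice, against 6.63 and 6.79 in the -/- mice. Lpl is also expressed by other brain cells. Cd52, a small surface glycoprotein of leukocytes, measured 6.67 and 6.61 in the +/+ mice, against 6.71 and 6.75 in the -/- mice, a difference of 0.090 (SE 0.072).

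Ctsd and Ctsb, the lysosomal proteases counted among the activation genes, overlapped between genotypes at their brightest probe sets. Ctsd measured 11.12 and 11.17 in the +/+ mice, against 11.16 and 11.18 in the -/- mice, a difference of 0.025 (SE 0.071). Ctsb measured 11.85 and 11.85 in the +/+ mice, against 11.82 and 11.91 in the -/- mice, a difference of 0.015 (SE 0.074). The 5 Ctsb probe sets disagreed. One read 9.26 in each +/+ mouse against 9.35 in each -/- mouse, and another 8.72 and 8.64 against 8.83 and 8.85, differences of 0.090 and 0.16 with no overlap. The remaining pair differed by -0.050 and, at a dim level of 5.98, by -0.17 (SE 0.18).

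Axl, a receptor for dying cells, and Fabp5, a fatty acid binding protein that neurons and other cells express as well, overlapped between the genotypes. Axl differed by 0.020 (SE 0.11) and its ligand genes Gas6 and Pros1 by 0.025 and -0.010. Fabp5 differed by -0.035 (SE 0.094), and its second probe set by -0.0050.

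**Figure D3:**
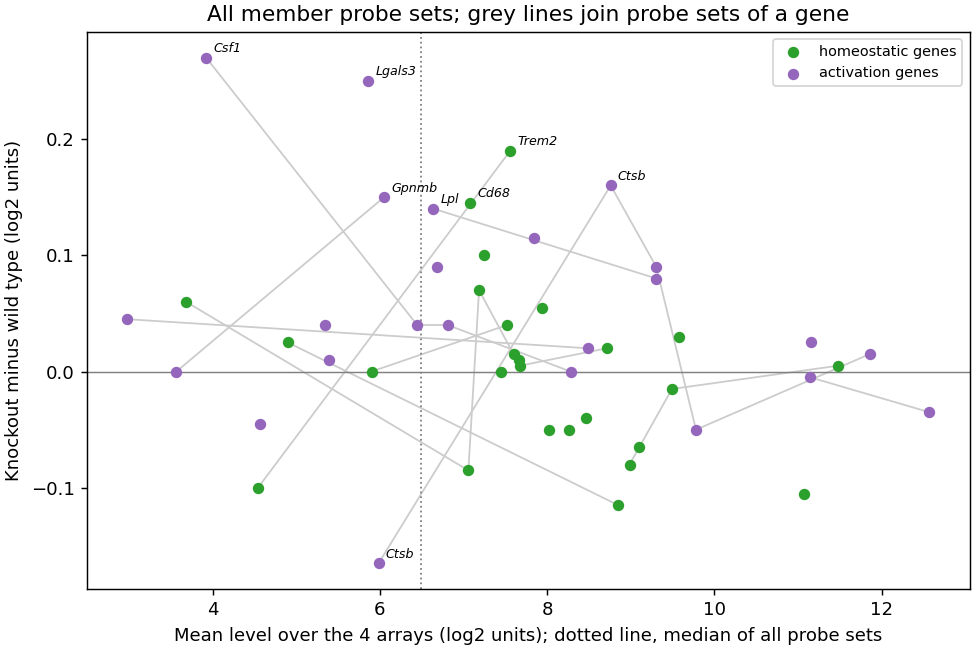
Difference between genotypes against mean level for all 50 member probe sets, both in log2 units. Green points are homeostatic and purple points activation genes, grey lines join probe sets of a gene, and the dotted line marks the median level of all probe sets; the wide differences of Lgals3 and the dimmest Csf1 probe set lie to the left of it.

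Of the 11 genes with several probe sets, 6 had no probe sets of opposite sign and 5 did: Cx3cr1, Csf1r, Trem2, Laptm5 and Ctsb. The other 19 genes had 1 probe set each.

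Counted over the list, 6 members were higher in both knockout mice than in both wild-type mice, namely Trem2, Cd68, Lpl, Lgals3, Cd52 and Lyz2. That is 20.0% of the members, and 15.5% of all genes were higher in this way. The 2 members that were lower in both were Cx3cr1 and Ctss, 6.67% against 12.8% of all genes. By group, 2 homeostatic and 4 activation genes were higher, and 2 homeostatic and 0 activation genes were lower. Without the second knockout array 11 members were higher and 13 lower (28.7% and 39.8% of all genes). Without the first knockout array 19 were higher and 5 lower (44.4% and 25.4%), and without the first wild-type array 8 were higher and 5 lower (26.9% and 26.6%).

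The knockout mice differed from each other more than the wild-type mice did in most members. The SD of the 2 knockout values was larger than that of the 2 wild-type values in 25 of 30 members (83.3%), 16 of them homeostatic and 9 activation genes, and in 59.6% of all genes. The wild-type values lay strictly inside the knockout values in 11 members (36.7%) and in 23.0% of all genes. The median SD over the members was 0.035 in wild type and 0.085 in the knockout, beside 0.049 and 0.071 over all genes. Set against the mean of the +/+ mice, the homeostatic genes had a median distance of -0.035 in the first knockout mouse and 0.040 in the second. For the activation genes it was 0.015 and 0.095. The first knockout mouse was the lower of the pair in 22 of 30 members (73.3%), and in 62.7% of all genes.

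Lists of genes related to the wider microglial programme gave a like picture, with 0 genes past the adjusted threshold. The RNA came from bulk brain, so the part of microglia in the values of these lists was not tested. Of 24 measured further identity genes, 10 had positive and 13 negative differences, with a median of -0.0075. Against the mean of the +/+ mice, their median distance was -0.070 for the first knockout mouse and 0.075 for the second. The complement genes C1qa, C1qb and C1qc were among those that differed little, at -0.010, -0.045 and -0.015. Cd14, a co-receptor for bacterial lipid, had the largest difference among the bright genes of this list, -0.12 (SE 0.081), followed by Runx1 at 0.11 and Ptprc at -0.090.

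Of the 14 measured ligands and signalling partners, 6 were positive and 7 negative, with a median of -0.0050. Cd200, a neuronal surface protein that restrains microglia, measured 10.07 and 10.14 in the +/+ mice, against 10.19 in each -/- mouse, a difference of 0.085 (SE 0.072). The 26 further activation and lysosome genes had 14 positive and 11 negative differences and a median of 0.0075. In that list the bright genes of largest difference were Mitf, Igf1 and Ctsz. Mitf, a transcription factor of lysosomal genes, differed by 0.085, Igf1, a growth factor, by -0.080, and Ctsz, a cathepsin, by 0.075. For all 3 genes limma gave an adjusted p of 1. The dimmer Cybb and Ccl6 differed by 0.375 and -0.28 without overlap, and by 0.10 and -0.50 without the second knockout array.

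Among markers of other myeloid cells, those of neutrophils most often lacked overlap between the genotypes. All 7 measured neutrophil markers were positive and 5 of them did not overlap between genotypes, beside 15.5% of all genes higher without overlap. Only 1 of the 7 lay above the median level of all probe sets, and 0 passed the adjusted threshold in limma. Their mean level was 5.33 and 5.26 in the +/+ mice, against 5.58 and 5.96 in the -/- mice. S100a8, a calcium-binding protein of neutrophils, measured 5.60 and 5.44 in the +/+ mice, against 6.36 and 7.02 in the -/- mice. Its partner S100a9 differed by 1.30 (SE 0.27), and without the second knockout array the differences were 0.84 for S100a8 and 0.94 for S100a9. Of the neutrophil granule genes, Ngp differed by 0.50, Camp by 0.23 and Ltf by 0.095, all without overlap. Lcn2 and Mmp8 differed by 0.035 and 0.025 and overlapped. Without the second knockout array, Ngp, Camp and Ltf differed by 0.205, 0.225 and 0.025, and Lcn2 and Mmp8 by -0.11 and -0.095. Neutrophils also express Lyz2, Cd52 and Lgals3, and the part of these cells in the differences of those genes was not tested.

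The 8 border macrophage markers, which mark macrophages of vessels and meninges, had a mean level of 6.14 and 6.34 in the +/+ mice, against 6.09 and 6.55 in the -/- mice. The second knockout mouse was highest and the first lowest. Mrc1, the mannose receptor of these cells, measured 6.57 and 6.53 in the +/+ mice, against 6.65 and 6.94 in the -/- mice, a difference of 0.25 (SE 0.12), which was 0.10 without the second knockout array. Of the 8 markers 5 were positive and 3 negative, and Mrc1 was the one without overlap. F13a1, a transglutaminase subunit, differed by 0.13 and Pf4, a chemokine, by -0.070. The dimmer Lyve1 and Cd163 differed by -0.40 and -0.15, and by -0.605 and -0.48 without the second knockout array. Cbr2, also dimmer, read 7.38 in that array, against 5.80 and 6.24 in the +/+ mice and 6.06 in the first knockout mouse. Its difference of 0.70 was 0.040 without the second knockout array. Monocyte markers, of which 5 were measured, had mean levels of 5.23 and 5.30 in the +/+ mice, against 5.40 and 5.36 in the -/- mice. The dim gene Chil3 differed by 0.67 without overlap, while the median distance from the mean of the +/+ mice was 0.015 for the first and -0.065 for the second knockout mouse. Ccr2, the chemokine receptor of monocytes, differed by -0.12 and Vcan by -0.035. Border macrophages express Cd68, Trem2, Lyz2 and Csf1r as well, and their part in the differences was not tested. The second knockout array also had the highest mean level of the 6 pituitary markers, 6.34 against 5.97 to 6.07, and of the 3 measured erythroid markers, 5.68 against 5.26 to 5.46. What part other tissue in that array had in the microglial values was not tested either.

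The remaining marker lists, for cells that surround microglia or could be carried into the sample, had 0 genes past the adjusted threshold in limma. Among astrocyte markers Gfap, the filament protein that rises in reactive astrocytes, measured 8.64 and 8.77 in the +/+ mice, against 9.01 and 8.97 in the -/- mice. Both knockout values lay above, by 0.29 (SE 0.081, unadjusted p 0.0189, adjusted p 1 in limma), while Aqp4 and Gja1 differed by 0.085 and -0.030. Limma gave smaller unadjusted p-values to S100a8 (0.0045), S100a9 (0.0053) and Chil3 (0.014), which were not called either. The Gfap probe set has a suffix for shared probes. Among neuron markers Tubb3 and Map2, proteins of the cytoskeleton, were lower without overlap, by -0.15 and -0.075, and Snap25 differed by -0.040. Among oligodendrocyte markers the myelin enzyme gene Cnp was higher without overlap, by 0.095, and Mag and Mobp differed by 0.065 and 0.060. The T cell genes Cd3e and Cd4 differed by 0.090 and -0.040, and the erythroid gene Alas2 by 0.075. The pituitary hormone genes Gh and Pomc differed by 0.71 and 0.11, and the nasal gene Bpifb3 by 1.02. Without the second knockout array these differences were 0.385 for Gh, -0.0050 for Pomc and 0.14 for Bpifb3.

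**Figure D4:**
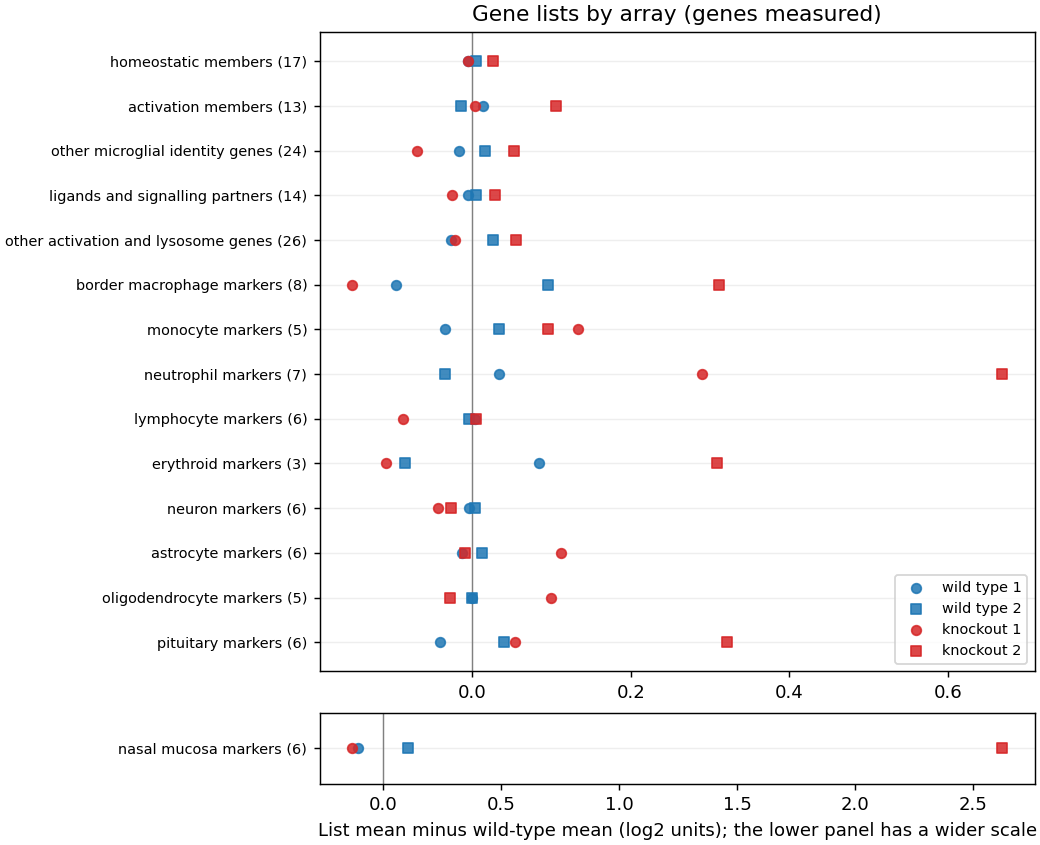
Mean level of each gene list in every array, as the distance from the wild-type mean in log2 units, with the number of measured genes in brackets and the nasal mucosa list on its own, wider scale. Blue symbols are wild type, red symbols knockout, circles mouse 1 and squares mouse 2; the microglial lists stay close to 0, while the neutrophil list is higher in both knockout arrays and the nasal list in the second one.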

How the data were processed

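Per the labels' protocols, biotin-labelled RNA was made from 100 ng of total RNA with a 3' IVT kit, 1 array per mouse. The deposited table gives 1 log2 level per probe set, computed by the authors with RMA, per the submitters' processing notes. The sources used here name no RMA version. RMA equalises the distribution of arrays, so a change shared by all genes would be removed, and dim differences are compressed. Values have 2 decimals. No depth applies to arrays, and their number limits the precision.

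The table has 45101 rows, of which 64 control probe sets were left out. The platform annotation named 1 gene for 34945 probe sets, several for 932 (given no gene name) and none for 9160. The genotypes were compared by the moderated two-sided test of limma 3.58.1, run in R 4.3.3 on 45037 probe sets, and p-values were adjusted after Benjamini and Hochberg, with a threshold of 0.05. There were 2 residual and 2.74 prior degrees of freedom. The script was tested on simulated data. SDs are between 2 mice, which the labels describe as separate animals.

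Members and lists were chosen with earlier results of these data known, so no list test was made. All members are named. Of each further list, up to 3 genes of the largest difference above the median level are named by rule. Other list genes, and per-array values beyond the members with no overlap and a difference of at least 0.15, were picked after their values were seen. Alternatives were array centring, a second quantile normalization, leaving out dim probe sets, a variance trend, the replicate block, other probe set summaries and leaving out each array.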

Additional observations from a re-analysis of the deposited data

How the results depend on the processing

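No member was called (0 of 30) in limma under any of the alternatives run, with a smallest adjusted p of 0.573, and with mouse number as a replicate block the count was also 0, with a smallest adjusted p of 0.847. The numbers pair no animals in the labels, and there are only 2 pairs. Deviations from the group means correlated at 0.24 across probe sets for same-numbered mice and at -0.24 for crossed mice. With 2 mice per group these values must mirror each other, so they do not show whether mice were paired. Over all probe sets, 10 were called with an intensity trend and robust variance and 0 with the block, against 2.

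Centring and quantile normalization reversed no member. The mean of all probe sets gave -0.030 for Csf1r, and without shared (_x_at, _s_at) probe sets Trem2 was -0.10 and Laptm5 -0.085. With the mean of all probe sets 1 member was lower without overlap. Leaving out 1 array moved the median of the homeostatic genes between -0.035 and 0.040, that of the activation genes between 0.015 and 0.095, the members higher without overlap between 8 and 19 and those lower between 2 and 13. Fewer arrays make overlap rarer.

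Leaving out 1 array turned the sign of 17 members, with these ranges: Tmem119 -0.23 to 0.13, Csf1r -0.035 to 0.045, Siglech -0.020 to 0.050, Sall1 -0.16 to 0.24, Gpr34 -0.045 to 0.25, Olfml3 -0.0050 to 0.12, Fcrls -0.12 to 0.040, P2ry13 -0.065 to 0.085, Selplg -0.11 to 0.010, Tyrobp -0.010 to 0.070, Laptm5 -0.075 to 0.12, Axl -0.090 to 0.13, Clec7a -0.17 to 0.19, Cst7 -0.19 to 0.095, Itgax -0.17 to 0.25, Ctsb -0.030 to 0.060 and Fabp5 -0.13 to 0.060. Of the members that kept their sign, some moved by 1.5 times or more: P2ry12 -0.11 to -0.025, Cx3cr1 -0.17 to -0.060, Trem2 0.085 to 0.30, Lgals3 0.12 to 0.39, Gpnmb 0.055 to 0.25 and Cd52 0.060 to 0.12. Ctsd lay between 0 and 0.050. Genes of the marker lists were also computed without the second knockout array, an alternative chosen after seeing the data. With 1 array left in a group, it was assumed to vary like the other group. The causes were not tested.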
